A study of Drosophila melanogaster with 2 samples.

Results

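The 88 genes described here encode subunits of the oxidative phosphorylation machinery of Drosophila melanogaster and the duplicated copies of those genes. They were taken by symbol from the Ensembl annotation, out of 13888 protein-coding genes on the arms other than chromosome 4. Symbols beginning ND- gave complex I (39 genes), Sdh gave complex II (7), UQCR- with Cyt-c1, Cyt-c1L and RFeSP gave complex III (12), COX gave complex IV (16) and ATPsyn gave complex V (14). The 25 genes whose symbols end in L, L1 or L2 were treated as paralogs, and the other 63 are called the ubiquitous members. ND-MNLL was kept among the ubiquitous members, because its last letter belongs to the name of the subunit. These class names come from symbols, since expression was not measured in these data and neither class could be checked against it.

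Complexes I, III and IV pass electrons from NADH and ubiquinol to oxygen and pump protons across the inner mitochondrial membrane, complex II feeds in electrons from succinate, and complex V uses the proton gradient to make ATP. Most subunits are encoded in the nucleus and are needed in nearly every cell. Flies also carry duplicated copies of many of these genes, a number of which are known to be expressed mainly in the testis, where sperm form around elongated mitochondria.

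The protein mapped was kmg (CG5204), a zinc-finger protein known for keeping somatic genes silent in spermatocytes. Chromatin was prepared from whole adult males, of unknown age, of a transgenic line that stably carries kmg with GFP at its C terminus, and the fusion protein was pulled down through its GFP tag. This 1 group has 2 biological replicates. Both replicates carried the same fusion protein, and no group without it is analysed here. All tissues of the males were pooled, so a peak cannot be assigned to a cell type, and binding in few cells cannot be told apart from weak binding in many. The deposited lists hold regions with a signal value from the peak caller. One list was thresholded on a measure of reproducibility, the irreproducible discovery rate (IDR). How the replicates entered that threshold is not described in the sources used here, so a region in it need not be strong in each replicate. Only regions of this list are called IDR peaks below. There were 2868 of them, and a gene was counted as having a promoter peak when the summit of an IDR peak lay within 500 bp of 1 of its annotated transcription start sites (TSSs). Without read totals, the depth behind each signal is unknown.

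The DNA beside the starts of 6 members is shown because their summits illustrate 3 of the situations found among the members. These are an IDR peak at the start, and strong regions in both replicates with no region in the pooled list. The last is a paralog with weak background regions alone. For 65 members, no region lay within 500 bp of a TSS in any list. Sequences are from the RefSeq Release 6 genome (dm6), written 5′ to 3′ on the strand of the gene. Capitals mark matches to the elements that are spelled out with their shares further on. ND-B22 (chr2L:13371111-13371260, minus strand), ND-MLRQ (chr3L:23339176-23339325, plus strand) and ND-MNLL (chrX:7893799-7894030, minus strand) were assigned to complex I by symbol. Their IDR summits lay 14 bp downstream, 7 bp upstream and 51 bp upstream of a TSS. ND-MNLL was the member of these with matches in the printed stretch, to the DNA replication-related element (TATCGATA) and to the nuclear respiratory gene element (TTACATAA).
ND-B22: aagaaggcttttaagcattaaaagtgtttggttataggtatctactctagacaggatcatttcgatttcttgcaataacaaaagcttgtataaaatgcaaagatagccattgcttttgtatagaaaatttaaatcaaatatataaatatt
ND-MLRQ: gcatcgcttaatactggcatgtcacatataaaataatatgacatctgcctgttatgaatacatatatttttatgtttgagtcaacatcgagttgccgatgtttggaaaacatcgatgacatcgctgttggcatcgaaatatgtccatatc
ND-MNLL: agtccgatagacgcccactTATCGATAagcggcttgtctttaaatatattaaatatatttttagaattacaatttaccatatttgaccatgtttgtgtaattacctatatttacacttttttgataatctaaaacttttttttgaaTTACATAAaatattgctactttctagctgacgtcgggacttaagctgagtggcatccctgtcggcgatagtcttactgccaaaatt
ND-B17.2 (chr2L:2580173-2580291, minus strand) and ATPsynCF6 (chr3R:23356065-23356277, minus strand) had regions of both replicates that overlap these positions and no region there in the pooled list. The capitals in ATPsynCF6 are an E-box (CAGCTG).
ND-B17.2: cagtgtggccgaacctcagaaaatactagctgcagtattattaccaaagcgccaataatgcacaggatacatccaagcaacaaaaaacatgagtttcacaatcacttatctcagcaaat
ATPsynCF6: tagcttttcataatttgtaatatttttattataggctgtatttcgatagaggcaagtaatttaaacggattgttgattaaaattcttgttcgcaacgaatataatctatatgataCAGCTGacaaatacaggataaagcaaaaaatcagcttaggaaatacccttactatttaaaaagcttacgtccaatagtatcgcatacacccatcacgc
ATPsynCF6L (chr3L:5012134-5012283, minus strand) is the paralog of ATPsynCF6 and starts inside an intron of Con. Its printed stretch held no match.
ATPsynCF6L: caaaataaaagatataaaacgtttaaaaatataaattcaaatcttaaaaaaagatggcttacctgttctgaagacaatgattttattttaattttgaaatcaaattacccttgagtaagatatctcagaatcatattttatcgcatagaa

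Of the 88 members, 7 had a promoter peak, which is 7.95% (95% Wilson interval 3.91 to 15.5%). Over all protein-coding genes the share was 12.5% (1730 of 13888), which lies inside the interval of the members. All 7 were among the 63 ubiquitous members (11.1%, interval 5.49 to 21.2%). None of the 25 paralogs had one, a count of 0 that allows a share of up to 12%. Its Wilson interval reaches 13.3%, so the share of all genes lies at the edge of what counting error allows. These limits cover counting error only.

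By complex, 5 of the 7 promoter peaks were at complex I genes (12.8% of 39, interval 5.60 to 26.7%). This share was near the 12.5% over all protein-coding genes. Complex III had 1 of 12 and complex IV had 1 of 16. Complex II had 0 of 7 and complex V had 0 of 14, which allow shares of up to 42.9% and 21.4%. Outside complex I the share was 4.08% (2 of 49, interval 1.13 to 13.7%), and this interval overlaps that of complex I. No difference between complexes was resolved at these numbers of genes.

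The 5 genes with a promoter peak that were assigned to complex I were ND-MWFE, ND-B22, ND-MNLL, ND-B18 and ND-MLRQ. They do not encode the core subunits that carry out electron transfer. The assignment rests on symbols alone, and whether the product of ND-MLRQ belongs to complex I was not checked. ND-MWFE encodes a subunit of the membrane arm and had the strongest peak of the set, at a signal of 232 in the pooled list, 124 in replicate 1 and 107 in replicate 2. It ranked 258 among the IDR peaks, with its summit 179 bp upstream of ND-MWFE and inside an intron of TppII, a gene for a peptidase whose TSS was nearer, at 42 bp. The other 4 had signals below the median of 89.8 over all genes with a promoter peak.

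ND-B22 had a signal of 81.8 in the pooled list, 55.1 in replicate 1 and 21.8 in replicate 2. The replicates thus differed 2.53-fold, with replicate 1 the higher. The region ran from 13370881 to 13371310 on 2L, and its summit was in the first part of the gene itself, in an exon outside the coding sequence. ND-MNLL had 63.1 in the pooled list, 27.4 in replicate 1 and 31.2 in replicate 2. Its summit was intergenic on X, in the 233 bp between ND-MNLL and p115, a gene for a Golgi tethering protein that starts in the opposite direction. The peak counts for both genes and also for CG45089, which has a TSS within 500 bp of the summit.

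ND-B18 had a signal of 48.4 in the pooled list, 25.1 in replicate 1 and 20.5 in replicate 2, with the summit 49 bp downstream of a TSS. The gene hiw, which encodes a ubiquitin ligase that restrains synapse growth, starts 304 bp away in the opposite direction. ND-MLRQ had 45.2 in the pooled list, 28.2 in replicate 1 and 17.7 in replicate 2. Its summit coincided with an annotated microRNA gene at the start of ND-MLRQ. These values lie close to the lowest signal in the IDR list, 42.5, and the q-values of both peaks in the pooled list were above 5% (0.146 for ND-B18 and 0.188 for ND-MLRQ).

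In complex III, UQCR-11, a small accessory subunit of the cytochrome bc1 complex, had a signal of 45.9 in the pooled list, 18.4 in replicate 1 and 28.3 in replicate 2. The pooled summit lay 475 bp downstream of a TSS, just inside the window, in an exon outside the coding sequence, and the replicate 1 summit lay at 541 bp, just beyond it. In complex IV, COX5B, a nuclear subunit of cytochrome c oxidase, had 49.8 in the pooled list, 14.6 in replicate 1 and 35.2 in replicate 2. Its summit was 257 bp upstream of COX5B and 41 bp from the start of IFT52, a gene of intraflagellar transport that runs in the opposite direction. The stretch around that summit carried no match to the elements searched and is shown because it lies nearer to IFT52 than to COX5B (chr2L:6557505-6557654, plus strand, Release 6).
COX5B: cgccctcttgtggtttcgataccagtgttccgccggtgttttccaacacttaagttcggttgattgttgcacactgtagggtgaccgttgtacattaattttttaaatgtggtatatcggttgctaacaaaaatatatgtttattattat

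Across the 7 members the pooled signal ran from 45.2 to 232, with a median of 49.8, beside 89.8 over all genes with a promoter peak. Of the 7 peaks, 5 ranked beyond 1434, the midpoint of the IDR list. In the pooled list 3 had a q-value of at most 5% (ND-MWFE, ND-B22 and ND-MNLL). Over the whole IDR list, 1079 of the 2868 peaks had a q-value above 5%. The summits of the members lay a median of 7 bp upstream of the TSS and 4 of 7 were upstream. Over all genes with a promoter peak the median was 140 bp upstream, and 1503 of 1730 were upstream. The 2 replicates ranked the 7 peaks differently. ND-MWFE was highest in each, ND-B22 came next in replicate 1, and COX5B was next in replicate 2.

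**Figure D1:**
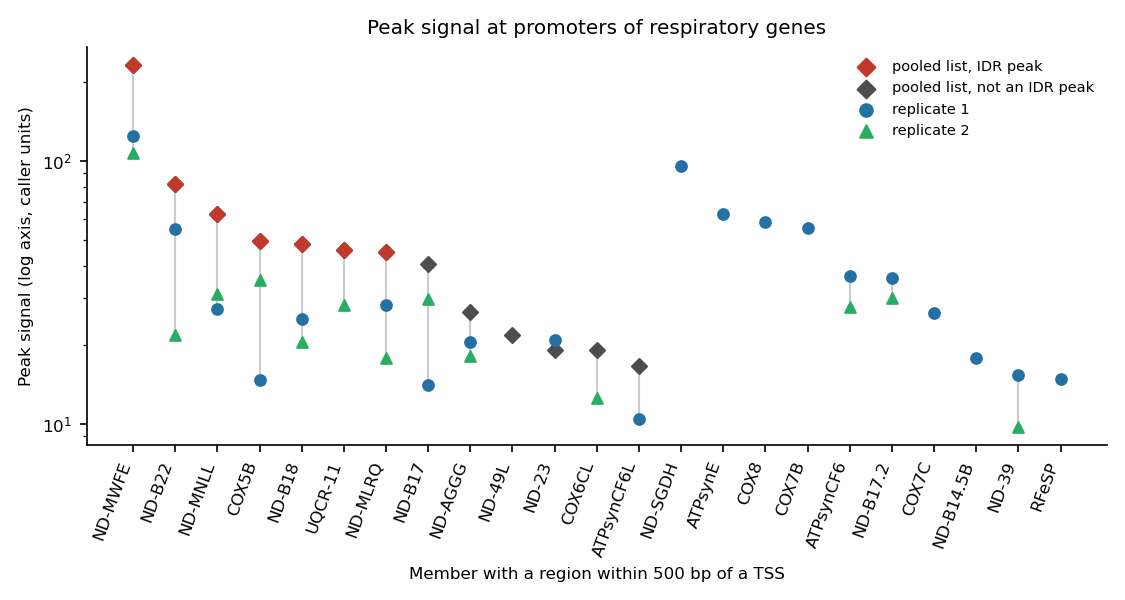
Peak signal (log axis, in the units of the peak caller) at each of the 23 members with a region within 500 bp of a TSS in at least 1 list; red diamonds are IDR peaks, grey diamonds other regions of the pooled list, blue circles replicate 1 and green triangles replicate 2. The highest value in each list was shown; the replicate 1 region of UQCR-11 lay at 541 bp and is not drawn, and ND-SGDH, ATPsynE, COX8, COX7B and COX7C had strong regions in replicate 1 alone.

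Some members lay near an IDR peak without reaching the window. COX7AL2, a paralog of a complex IV subunit, had an IDR peak 555 bp downstream of its start, inside an exon of its own, with a signal of 58.7 in the pooled list, 29.2 in replicate 1 and 31.2 in replicate 2. The values of the replicates were close, and this was the paralog nearest to an IDR summit. ATPsynE, a membrane subunit of complex V, had a summit 841 bp downstream with signals of 91.1, 49.4 and 36.5 in the same order, and the nearest start was that of spn-B, a recombination gene, at 142 bp.

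In the other complexes the nearest summits belonged to neighbours. For ND-39 of complex I the summit lay 1584 bp away and 176 bp from ZnT77C, a zinc transporter gene. For SdhB, the iron-sulfur subunit of complex II, it lay 2224 bp away (signal 134) and 84 bp from CG15237. For RFeSP, the Rieske iron-sulfur protein of complex III, it lay 2836 bp away (signal 176) and 86 bp from CG14352. These peaks were nearer to another gene than to the member in each of the 3 cases.

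Of the 81 members without a promoter peak, 2 had a summit within 1000 bp, 11 at 1000 to 5000 bp and 68 beyond 5000 bp. The median distance to the nearest IDR summit was 17001 bp over all members, 15341 bp over the ubiquitous members and 32520 bp over the paralogs, beside 14755 bp over all protein-coding genes. Of the 25 paralogs, 24 had every start more than 1000 bp from an IDR summit. Such distances were common in every set. The lower quartile was 7873 bp over the paralogs, 5237.5 bp over the ubiquitous members and 4386 bp over all protein-coding genes. Distances from genes that lie close together share summits. COX5BL, for example, starts 1631 bp from COX5B, and its nearest summit was that of COX5B.

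**Figure D2:**
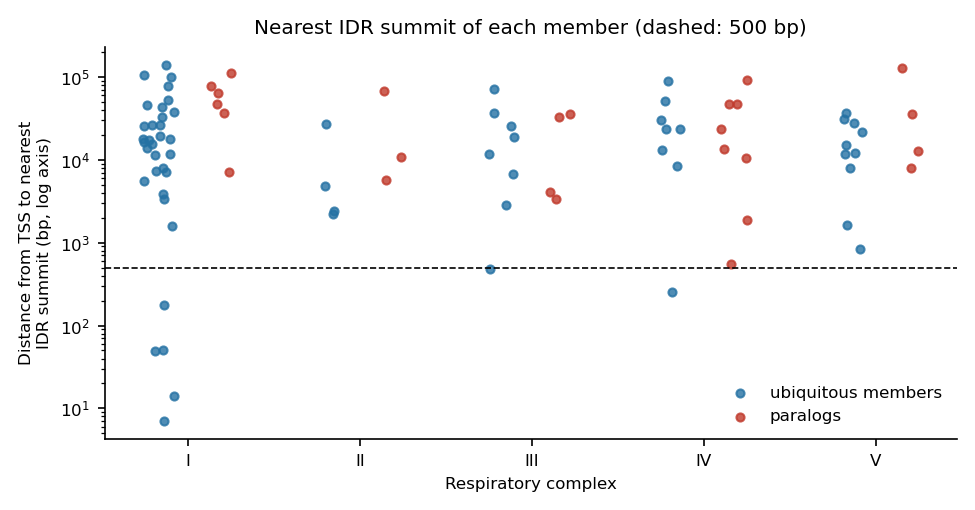
Distance (bp, log axis) from the TSS of each of the 88 members to the nearest IDR summit, by respiratory complex, with ubiquitous members in blue and paralogs in red; horizontal scatter is for display only. The 7 points below the dashed line at 500 bp are the members with a promoter peak, and the lowest red point is COX7AL2 at 555 bp.

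The longer lists include background regions and reach lower signals, with 30000 regions in each. In the pooled list, 13 of 88 members had a region within 500 bp of a TSS (14.8%), 10 of the 63 ubiquitous members (15.9%) and 3 of the 25 paralogs (12%), where the share over all genes was 31.6%. In both replicate lists at once it was 11 of 88 (12.5%) with 0 paralogs, where the share over all genes was 23.0%; this count did not require the summits of the replicates to match. A further 9 members had a region in replicate 1 alone and 2 in replicate 2 alone, and 65 members had none in any list. The Wilson intervals of the members, 8.84 to 23.7% and 7.13 to 21.0%, lay below the share of all genes in both cases. These are descriptions with no test.

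The 6 further members in the pooled list had q-values between 0.279 and 0.627, all above 5%. ND-B17, an accessory subunit of complex I, had a signal of 40.7 in the pooled list, 14.0 in replicate 1 and 29.8 in replicate 2. ND-AGGG, also of complex I, had 26.6, 20.5 and 18.0 in that order. ND-23, an iron-sulfur core subunit of complex I, had 19.1 in the pooled list and 20.8 in replicate 1, with no region in replicate 2.

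All 3 paralogs with a region were among these weak ones. ND-49L had 21.8 in the pooled list and no region in either replicate. COX6CL had 19.0 in the pooled list and 12.6 in replicate 2. ATPsynCF6L, whose start is printed above, had 16.5 in the pooled list, near the lowest value of 16.0 in that list, and 10.4 in replicate 1. No paralog had a region in both replicates. ATPsynGL and ATPsynbetaL, taken as the first in alphabetical order, stand for the 22 paralogs with no region in any list; their nearest IDR summits lay 35881 and 7873 bp away.

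The lists could also be compared at equal length, by taking the 2868 strongest regions of each replicate. In replicate 1, 12 of the 88 members had such a region at a promoter, where the share over all genes was 14.2%. In replicate 2 it was 7 of 88, where the share over all genes was 13.2%. All of these members were ubiquitous, at 12 of 63 (19.0%) in replicate 1 and 7 of 63 (11.1%) in replicate 2. By complex, replicate 1 gave 7 in complex I, 0 in complex II, 0 in complex III, 3 in complex IV and 2 in complex V, and replicate 2 gave 4, 0, 1, 1 and 1.

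Few members were strong in both replicates at the same place. With summits matched within 100 bp, 3 of 88 members had a strong region in both, where the share over all genes was 9.65%. They were ND-MWFE, ND-MNLL and ATPsynCF6. ATPsynCF6, coupling factor 6 in the peripheral stalk of complex V, reached 36.4 in replicate 1 and 27.8 in replicate 2, at summits 180 and 178 bp upstream, and no region in the pooled list. The replicate values sum to 64.2, beside a lowest IDR signal of 42.5. The IDR signal is that of the pooled list, and how it relates to such a sum is not given. Sec13, a gene of vesicle coats, starts 214 bp away in the opposite direction.

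ND-B17.2, an accessory subunit of complex I, gave a like picture, with 35.9 in replicate 1 at 60 bp upstream and 30.1 in replicate 2 at 42 bp upstream, and no region in the pooled list. Its summits lay 143 bp apart, measured from different starts, so it was not matched. Arpc5, an actin-nucleation gene, starts 120 bp from it. ND-39 was the third member with regions in both replicates and none in the pooled list, at 15.3 and 9.74, but these summits lay 3326 bp apart, at different starts of the gene, and are not the same region. Over all matched strong regions, 83 of 1744 (4.76%) had no pooled summit within 500 bp. Why the pooled list lacks these regions was not tested.

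A last set of members, named after their values were seen, was strong in replicate 1 and had no region within 500 bp of a TSS in replicate 2 or in the pooled list. There were 5 of 88, all ubiquitous, where the share over all genes was 1.58% (219 genes). ND-SGDH, a membrane-arm subunit of complex I, had a signal of 95.4 in replicate 1, 108 bp upstream, at rank 391. ATPsynE had 62.8 at 51 bp upstream, COX8 had 58.9 at 114 bp upstream, COX7B had 55.7 at 145 bp upstream and COX7C had 26.3 at 372 bp downstream. ATPsynE belongs to complex V and the COX genes to cytochrome c oxidase. A divergent neighbour (a protein-coding gene starting in the opposite direction within 1000 bp) was present for 4 of the 5, all but COX7C, beside 33 of the 63 ubiquitous members and 4634 of all 13888 genes. The reverse, strong in replicate 2 alone, held for 0 of 88 members, where the share over all genes was 0.785% (109 genes). Over the whole lists, 370 (12.9%) of the strong regions of replicate 1 and 234 (8.16%) of those of replicate 2 had no pooled summit within 500 bp. These promoter regions are therefore seen in 1 library alone and have no replicate check.

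**Figure D3:**
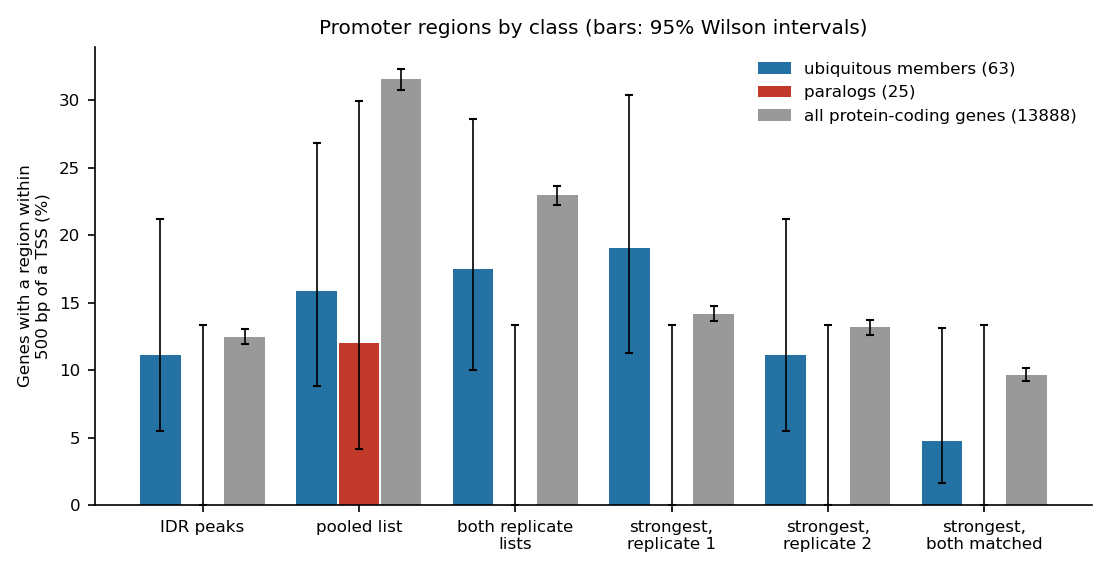
Share of genes (%) with a region within 500 bp of a TSS in each list, for the 63 ubiquitous members, the 25 paralogs and all 13888 protein-coding genes; error bars are 95% Wilson intervals, which cover counting error only. Of the lists drawn, the pooled one is the 1 in which paralogs are above 0 (12%), and the ubiquitous members lie at 11.1% against 12.5% for all genes among IDR peaks.

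The members were also compared by how they sit in the genome. All 63 ubiquitous members had at least 1 intron (median 2), while 6 of the 25 paralogs had none (median 1). The ubiquitous members were spread over the arms, with 13 on 2L, 11 on 2R, 14 on 3L, 13 on 3R and 12 on X, and the paralogs had 4, 6, 7, 7 and 1 in the same order. A protein-coding neighbour starting in the opposite direction within 1000 bp was present for 33 of the 63 ubiquitous members and 4 of the 25 paralogs. Members with such a neighbour had a promoter peak in 3 of 37 cases (8.11%) and members without in 4 of 51 (7.84%). Over all protein-coding genes the shares were 19.0% (881 of 4634) and 9.17% (849 of 9254). With 3 and 4 members called, a difference from these shares was not tested.

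Protein identity between a paralog and its base gene, over 23 pairs, had a median of 51.1%. It ran from 30.3% for COX6CL against cype to 85.6% for UQCR-14L against UQCR-14. In 7 pairs both genes were on the same arm, and 3 of them lay within 5000 bp: COX5BL with COX5B, COX7AL with COX7A and COX7CL with COX7C. The base genes of ND-49L and ATPsynbetaL are on chromosome 4 and were left out. Of the 7 members with a promoter peak, UQCR-11 and COX5B have a paralog in the set, UQCR-11L (78.8% identity) and COX5BL (44.1%), and neither paralog had a region in any list.

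Sequence elements were searched on both strands from 250 bp upstream to 50 bp downstream of each gene start. The M1BP core (GGTCACAC), bound by a zinc-finger factor at housekeeping promoters, was found at 16 of the 63 ubiquitous members (25.4%), 1 of the 25 paralogs (4%) and 7.70% of all protein-coding genes. Motif 7 (CAGCNCTA or CATCNCTA) was found at 14 ubiquitous members (22.2%), 0 paralogs and 9.74% of all genes. The DNA replication-related element (TATCGATA) was found at 9 ubiquitous members (14.3%), 0 paralogs and 9.36% of all genes. The words of Motif 7 and of the M1BP core do not contain each other, and overlaps between matches were not removed.

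The nuclear respiratory gene element (TTACATAA, TTACGTAA, TTATATAA or TTATGTAA) was found at 4 ubiquitous members (6.35%), 0 paralogs and 5.15% of all genes. The E-box (CAGCTG) was found at 19 ubiquitous members (30.2%), 2 paralogs (8%) and 17.7% of all genes. The control word AAATTATT, chosen for its base composition alone, was at 10 ubiquitous members (15.9%), 3 paralogs (12%) and 8.95% of all genes. The control word was thus more frequent at members too, whose windows had a median GC content of 34.3% (ubiquitous) and 34% (paralogs), against 38% over all genes. The part of base composition in the other shares was not tested.

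**Figure D4:**
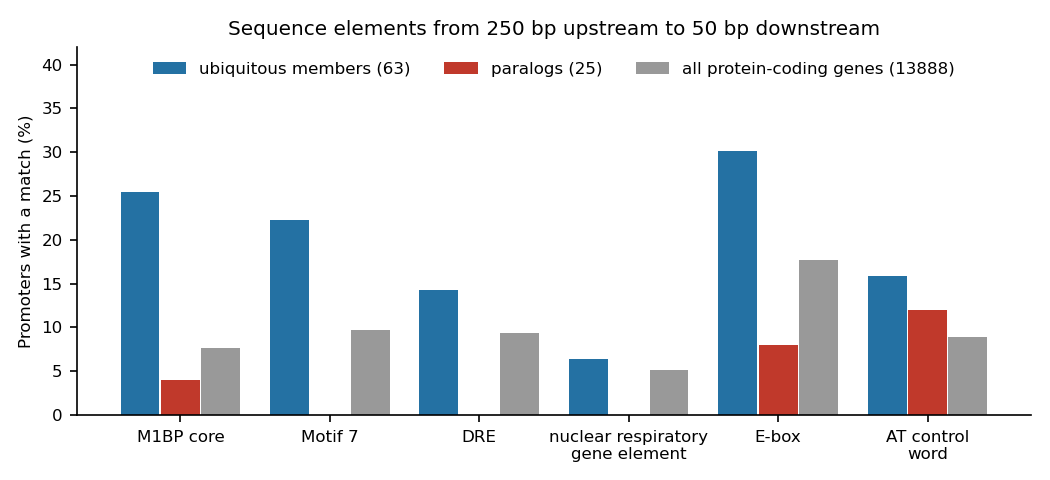
Share of promoters (%) with at least 1 match to each element in the window from 250 bp upstream to 50 bp downstream of the gene start, for the 63 ubiquitous members, the 25 paralogs and all 13888 protein-coding genes. The M1BP core stands at 25.4% of ubiquitous members against 7.70% of all genes, and the control word of AT letters at 15.9% against 8.95%.

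Among the 7 members with a promoter peak, ND-MWFE had both Motif 7 and the M1BP core, ND-MNLL had Motif 7, the DNA replication-related element and the nuclear respiratory gene element, and COX5B had the M1BP core. The E-box was in none of these 7 promoter windows and the control word was in 3. Within 100 bp of the summits themselves, the M1BP core was in 0 of the 7 member peaks and 1.37% of the 2843 IDR peaks off chromosome 4. Motif 7 was in 1 member peak and 6.09% of all peaks, and the nuclear respiratory gene element in 1 and 4.50%. The DNA replication-related element was in 0 member peaks and 3.02% of all peaks. The E-box was in 2 member peaks and 8.37% of all peaks, and the control word in 2 and 7.28%. A match is a description of the letters, and these counts are too few to compare.

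Other genes of the pathway were read from lists of symbols. Of 11 respiratory subunits and carriers named otherwise, 2 had a promoter peak (18.2%). They were blw, the alpha subunit of ATP synthase (193 bp upstream, signal 329), and Cyt-c-d, a cytochrome c used in the male germ line (394 bp downstream, signal 111). Cyt-c-d stood at 59.9 in replicate 1 and 49.8 in replicate 2. Its tandem neighbour Cyt-c-p, the somatic cytochrome c, had its nearest IDR summit 939 bp downstream of a TSS, at a signal of 368. blw thus had a stronger peak than any of the 88 members.

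Of 15 assembly factors found, 4 had a promoter peak (26.7%). CIA30, an assembly factor of complex I, was the strongest at 525 in the pooled list, 242 in replicate 1 and 285 in replicate 2. Cox17, a copper chaperone for cytochrome c oxidase, had 142 in the pooled list, 67.4 in replicate 1 and 74.3 in replicate 2. ECSIT, another complex I assembly factor, had 119, and Sdhaf3, of complex II assembly, had 47.4. Of 20 citrate cycle genes, 2 had a promoter peak (10%): PCB, pyruvate carboxylase, at 105 and muc, a subunit of pyruvate dehydrogenase, at 54.9. At muc, replicate 1 had 48.1, and replicate 2 had no region within 500 bp of a TSS. Another list held 19 genes of mitochondrial genome expression and regulators of nuclear respiratory genes, of which 1 had a promoter peak (5.26%). It was mtSSB, a single-stranded DNA-binding protein, at a signal of 183. The share over all genes, 12.5%, lies between these list shares, and each list is short.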

How the data were processed

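The authors deposited narrowPeak lists, of which 4 on dm6 were used (2 replicates, pooled, IDR), with a signal and a −log10 q-value for each region. The sources used here do not give the peak caller, the aligner or the filters. Control libraries are not analysed here. Lists on dm3 were not used. Per the labels, the replicates are separate biological replicates, and sonicated fragments were 200 to 800 bp. Genes and TSSs came from Ensembl release 115, chromosome 4 was left out, and 0 regions lay beyond the end of their arm.

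Nearest summits, distances, shares with Wilson intervals and motif matches were computed with Python 3.11.15, pandas 2.3.3, scipy 1.17.1 and Biopython 1.88. Protein identity was taken over aligned positions of global alignments (BLOSUM) of translated coding sequences. The counting code was checked on simulated data. There was 1 group, so no p-value was computed. The members and lists were chosen with earlier results of these data known. Named genes were each member with a promoter peak, up to 10 further members with the highest pooled signal at the promoter, paralogs with a pooled region and their base genes, the nearest member without a promoter peak in each complex, and the first 2 paralogs without a region. Pathway lists were matched by symbol, and 15 of 47 assembly symbols were found, several of the others being alternative names. Alternatives changed the window, the peaks counted, the TSSs, the assignment to genes, the replicates used and the class of ND-MNLL.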

Additional observations from a re-analysis of the deposited data

How the results depend on the processing

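Each of 12 results was recomputed under up to 10 alternatives. Of the values, 53 were classed as close to the reported result and 38 as moved. The close class was wide. It held the total of 7 members with a promoter peak at 5 with a window of 200 bp and 9 with 1000 bp. It also held this total at 5 with a peak counted for the nearest gene alone. With a window of 200 bp, complex III and complex IV had 0 promoter peaks each, the median signal was 63.1, 1 paralog had a pooled region, and 7 members had a region in both replicates. With 1000 bp, 1 paralog, 2 complex IV and 1 complex V members had a promoter peak, the median was 58.7, and 6 paralogs had a pooled region. Keeping the 1434 strongest IDR peaks left 2 members, 2 ubiquitous and 2 of complex I, with 0 in complexes III and IV and a median of 157. A q-value of at most 5% left 3 members, 3 ubiquitous and 3 of complex I, with 0 in complexes III and IV and a median of 81.8. With 1 TSS per gene, complex III had 0 and the median was 56.5. Counting a peak for the nearest gene alone left 0 in complex IV. With ND-MNLL counted as a paralog, 1 paralog had a promoter peak. Shares over all genes at these settings are not given, so the member counts cannot be set against them.

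Leaving out either replicate meant counting the 2868 strongest regions of the other, as above, in place of the IDR peaks. It gave 7 to 12 members and 7 to 12 ubiquitous members. The share over all genes was 14.2% in replicate 1 and 13.2% in replicate 2. By complex it gave 4 to 7 in complex I, 0 to 1 in complex III, 1 to 3 in complex IV and 1 to 2 in complex V. The higher values of members, complex I, IV and V came without replicate 2. Complex II and the paralogs stayed at 0 without either replicate. Requiring strong regions of both replicates, an alternative chosen after seeing the data, gave 3 members, 3 ubiquitous, 2 of complex I, 0 of complex III, 0 of complex IV and 1 of complex V. No paired analysis was possible because there was 1 group. The cause of these shifts was not tested. Depth is unknown, and with 7 peaks among 88 genes a difference between complexes or classes was not resolved.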
